A study of Mus musculus with 4 samples.

Results

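The limb patterning factors described here are 10 genes for DNA-binding proteins: Msx1, Msx2, Tbx4, Tbx5, Pitx1, Lmx1b, Prrx1, Twist1, Twist2 and Dlx5. They were taken by name from the 32285 genes of the count matrices, and all 10 were found. They were read in 4 single-cell RNA libraries from the mouse digit at the level of the middle phalanx (P2): 1 from homeostatic, unamputated tissue, and 1 each from fibrosing tissue collected 12, 17 and 28 days post-amputation (dpa). Per the labels, every library came from wild-type FVB/NJ mice, 8 weeks old, with both sexes pooled, and the labels name no transgene, vector or drug for these 4 samples. The number of animals behind a library, and whether the digits were from the fore- or the hindlimb, are not given in the sources used here. With 1 library per group there is no replicate, so differences between libraries carry no test and no p-value, and the intervals below cover counting error only.

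The libraries held between 92313847 and 197140774 unique molecular identifiers (UMIs), each UMI standing for 1 captured RNA molecule. After filtering, 10400 cells of the unamputated library, 6510 of the 12 dpa, 7919 of the 17 dpa and 10120 of the 28 dpa library were kept, and their median depth fell in that order from 11600.5 over 9543.5 and 8501 to 6657.5 UMIs per cell. Any pair of libraries shared between 19 and 87 cell barcodes, at most 0.570% of the smaller library. Although the labels describe pooled sexes, cells with a clear call were 8090 male and 1 female in the unamputated library, 4617 and 4758 male and 0 female at 17 and 28 dpa, and 3530 female and 0 male at 12 dpa. Sex and time therefore cannot be told apart in any comparison with the 12 dpa library. Marker genes named 15 cell classes, and 3 of 29 clusters stayed unnamed. Each class name stands for cells that carry its markers. Fibroblast-like, tenocyte-like and osteoblast-like cells, together called stromal here, numbered 1907, 2186, 2988 and 3380 in the 4 libraries.

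These genes are known from the embryonic limb bud. Prrx1 marks the mesenchyme of the bud, and its promoter is widely used to drive Cre there. Tbx5 is the T-box factor of the forelimb and Tbx4 that of the hindlimb, where Pitx1 activates Tbx4. Lmx1b gives limb mesenchyme its dorsal character, and human LMX1B is mutated in nail-patella syndrome. Msx1 and Msx2 are homeobox repressors that respond to BMP signals, and Msx1 is required for regrowth of the fetal mouse digit tip. Twist1 and Twist2 are basic helix-loop-helix factors that pair with E proteins and can hold back osteoblast differentiation, and Dlx5 promotes it.

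Promoter sequence is shown for 3 of the members: the close copies Twist1 and Twist2, whose levels parted in osteoblast-like cells, and Msx1, which was read in stromal, mural and endothelial cells. RefSeq windows on GRCm38.p6 were found for 7 of the 10 members. Each sequence is the 250 bases before the annotated start, 5′ to 3′ on the strand of the gene, and capitals mark the CCAAT box in either orientation (CCAAT or ATTGG). Msx1 lies at chr5:37824586-37824835 on the minus strand, Twist1 at chr12:33957421-33957670 and Twist2 at chr1:91801211-91801460 on the plus strand.
Msx1: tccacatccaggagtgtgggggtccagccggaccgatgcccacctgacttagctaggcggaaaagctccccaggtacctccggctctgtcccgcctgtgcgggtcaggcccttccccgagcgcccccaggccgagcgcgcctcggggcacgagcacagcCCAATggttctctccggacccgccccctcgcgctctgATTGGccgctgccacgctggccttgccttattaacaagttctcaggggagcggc
Twist1: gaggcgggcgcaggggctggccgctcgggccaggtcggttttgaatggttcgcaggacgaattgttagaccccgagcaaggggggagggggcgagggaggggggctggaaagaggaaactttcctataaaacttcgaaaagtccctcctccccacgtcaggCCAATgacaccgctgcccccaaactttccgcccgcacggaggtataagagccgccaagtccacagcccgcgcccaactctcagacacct
Twist2: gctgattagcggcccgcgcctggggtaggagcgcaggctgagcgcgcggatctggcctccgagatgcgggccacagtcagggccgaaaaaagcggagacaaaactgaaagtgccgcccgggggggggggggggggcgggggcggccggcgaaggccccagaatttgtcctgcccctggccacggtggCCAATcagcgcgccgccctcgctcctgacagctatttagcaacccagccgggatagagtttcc
The CCAAT box began 89 bases before the start in Twist1 and 63 bases before it in Twist2. Msx1 held 1 copy on each strand, 91 and 54 bases before the start. These 5 letters on either strand were found in 33.8% of 32536 promoter windows of the same length, so a match describes the window and names no bound factor. The homeodomain-type letters TAATTA, found in 4.84% of windows, were in none of the 3. Of the member windows not shown, those of Msx2 and Prrx1 held them, 187 and 173 bases before the start.

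The 10 genes divided by the kind of cell that held their UMIs. Tbx4, Tbx5, Pitx1 and Lmx1b were stromal: 97.9% of 2697 Tbx4 UMIs, 97.6% of 618 Tbx5 UMIs, 92.4% of 539 Pitx1 UMIs and 90.1% of 536 Lmx1b UMIs lay in the 3 stromal classes. Prrx1, Twist1 and Twist2 were shared between stroma and mural cells, the pericytes and smooth muscle around vessels: stromal cells held 77.6%, 84.6% and 89.1% of their UMIs and mural cells 21.6%, 13.7% and 9.61%. Msx1 gave 65.6% to stromal, 29.3% to mural and 3.08% to endothelial cells. Msx2 and Dlx5 reached the epidermis, which held 35.2% of 1311 Msx2 UMIs and 24.8% of 2661 Dlx5 UMIs. Msx2 differed from the other 9 in that the stroma held only 4.50% of it, against 58.8% in mural cells.

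**Figure D1:**
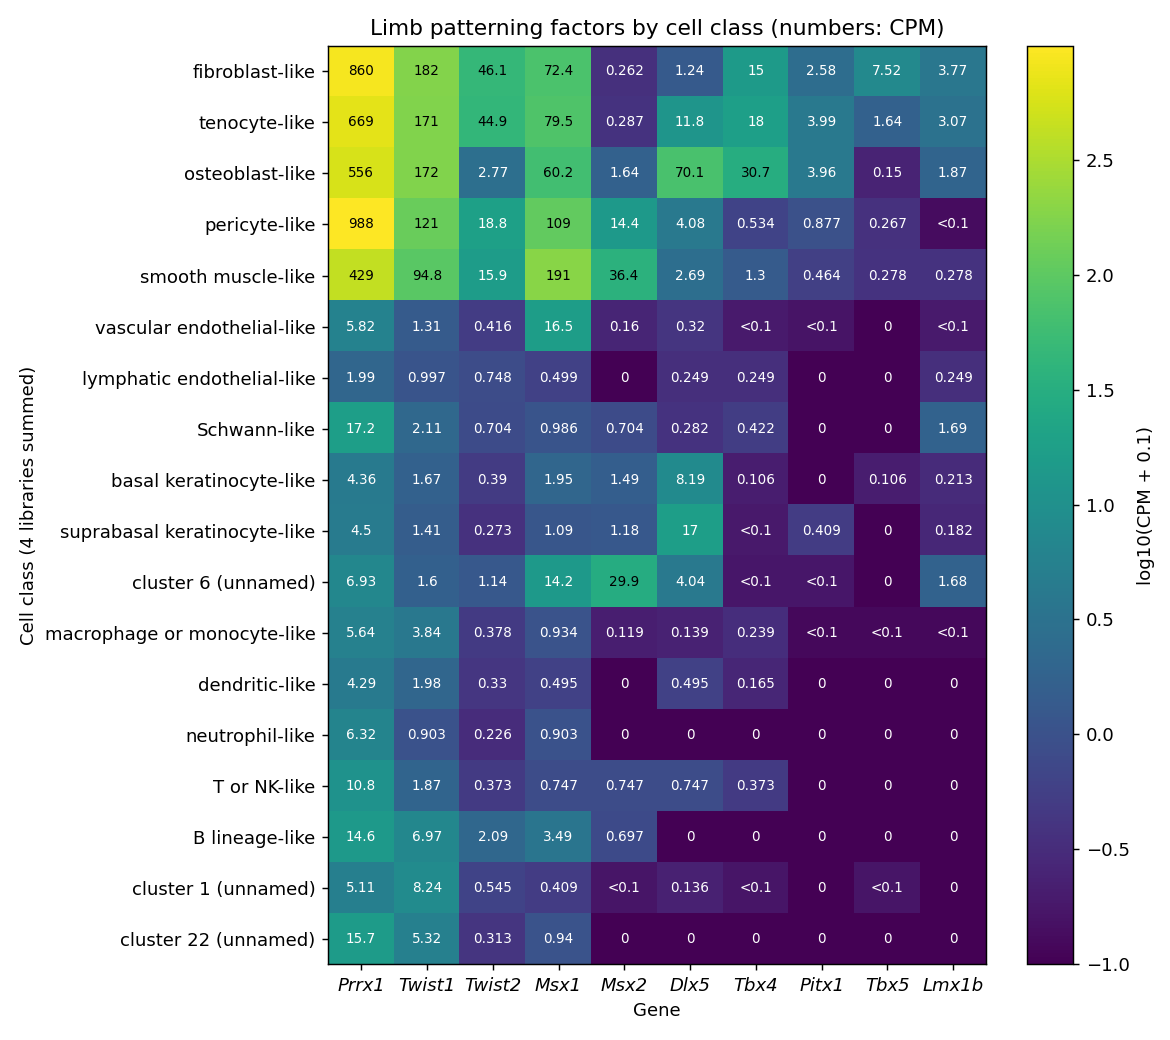
Level of each limb patterning factor in each cell class, in CPM (UMIs of the gene per 1000000 UMIs of the class, written in the cells) over the 4 libraries summed, with colour on a log10 scale of CPM + 0.1. Tbx4, Tbx5, Pitx1 and Lmx1b are highest in stromal classes, Lmx1b also reads 1.69 CPM in Schwann-like cells and 1.68 in cluster 6, Msx1 and Msx2 peak in smooth muscle-like cells, and Dlx5 peaks at 70.1 CPM in osteoblast-like cells.

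Prrx1 (ENSMUSG00000026586, chr1:163245119-163313710, minus strand, GRCm38) had 141422 UMIs in the kept cells. Levels are given in CPM, the UMIs of a gene per 1000000 UMIs of the cells summed, and are compared between cells, not between genes. The Prrx1 level over the 4 libraries summed was 988 CPM in pericyte-like, 860 in fibroblast-like, 669 in tenocyte-like, 556 in osteoblast-like and 429 in smooth muscle-like cells. Counting intervals separated all 5, and pericyte-like cells ranked the highest in each of the 4 libraries. In pericyte-like cells it was 1056 CPM in the unamputated library and 782, 1103 and 928 CPM at 12, 17 and 28 dpa, so the 12 dpa library was the lowest. In smooth muscle-like cells it read 503, 449, 410 and 315 CPM in the same order, lowest at 28 dpa, and the last value lay within 2-fold of the unamputated one. Of single fibroblast-like cells, 97.2%, 95.3%, 94.96% and 94.6% carried a Prrx1 UMI. With every cell thinned to 2000 UMIs, which left out 6, 8, 35 and 56 shallower cells, the shares were 72.7%, 64.0%, 74.0% and 74.2%. Macrophage-like cells, which should lack the gene, gave 0.467%, 1.02%, 0.876% and 2.59% at that depth and 3.44%, 4.37%, 4.95% and 6.94% unthinned. Their median depths were 10400, 7894, 8400 and 7282 UMIs, against 18122, 12290, 11675 and 8676 in fibroblast-like cells. A noncoding gene annotated on the opposite strand, Gm20471, had 526 UMIs, and the strand setting of the counting is not given in the sources used here.

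Twist1 and Twist2 each had close levels in fibroblast-like and tenocyte-like cells and parted in osteoblast-like cells. Twist1 (ENSMUSG00000035799, chr12:33957671-33959829) read 182 CPM in fibroblast-like, 171 in tenocyte-like and 172 in osteoblast-like cells, where the interval of the osteoblast-like cells overlapped the other 2 and those of fibroblast-like and tenocyte-like cells did not overlap each other. Twist2 (ENSMUSG00000007805, chr1:91801461-91848028) read 46.1 and 44.9 CPM in the first 2 classes and 2.77 CPM in osteoblast-like cells. The gap was present in every library with at least 50 osteoblast-like cells. There Twist2 read 4.23 CPM in the unamputated, 2.10 in the 17 dpa and 1.13 in the 28 dpa library, while Twist1 read 155, 185 and 179 CPM. Osteoblast-like cells thus carried Twist1 at the level of the other stromal classes and little of its copy. In mural cells both were lower than in fibroblast-like cells, with Twist1 at 121 CPM in pericyte-like and 94.8 CPM in smooth muscle-like cells and Twist2 at 18.8 and 15.9 CPM. Over libraries, Twist1 in smooth muscle-like cells was 79.4, 71.6 and 84.8 CPM up to 17 dpa and 138 CPM at 28 dpa, within 2-fold of the unamputated value. Near Twist2 the annotation also lists Gm29100 on the opposite strand, with 112 UMIs, and Gm29101 within an intron, with 371 UMIs, set against 6900 for Twist2.

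Msx1 (ENSMUSG00000048450, chr5:37820485-37824583, minus strand) was highest in smooth muscle-like cells, at 191 CPM, and next in pericyte-like cells, at 109 CPM. These ranks held in each library. In smooth muscle-like cells it read 178 CPM in the unamputated library and 111, 200 and 233 CPM at 12, 17 and 28 dpa. In pericyte-like cells it read 107, 79.6, 118 and 135 CPM, so in both mural classes the 12 dpa library was the lowest and the 28 dpa library the highest. The stromal classes were closer together, at 79.5 CPM in tenocyte-like, 72.4 in fibroblast-like and 60.2 in osteoblast-like cells.

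Vascular endothelial-like cells carried Msx1 as well, at 16.5 CPM over their 3 clusters. The signal lay mostly in cluster 16, led by Cdh5 and Kdr, genes of capillary and other blood vessel lining, where 15.7% of 1931 cells had a UMI and the level was 22.7 CPM (95% interval 20.6 to 24.97). Cluster 15, led by the adhesion genes Selp and Sele, read 4.84 CPM (3.61 to 6.37), with 2.96% of 1215 cells. The intervals of these neighbours did not overlap. Cluster 25, with 97 cells led by cell cycle genes such as Cenpf and Prc1, read 18.7 CPM (12.8 to 26.4), within counting error of cluster 16. Macrophage-like cells, as background, read 0.934 CPM. Prrx1, which had more UMIs than Msx1 in every stromal and mural class, had 103 UMIs in cluster 16 where Msx1 had 432. By library, endothelial Msx1 was 16.4, 20.1, 13.6 and 12.3 CPM.

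Msx2 (ENSMUSG00000021469, chr13:53466884-53473074, minus strand) followed its copy into the mural cells but not into the stroma. It read 36.4 CPM in smooth muscle-like and 14.4 CPM in pericyte-like cells, against 0.262 CPM in fibroblast-like, 0.287 in tenocyte-like and 1.64 in osteoblast-like cells. In smooth muscle-like cells the 4 libraries were close, at 36.1, 35.8, 33.8 and 39.4 CPM. Its other site was cluster 6, which stayed unnamed and was led by Krt15, Krt17 and the hair and nail keratins Krt25, Krt35 and Krt71. In this cluster 4 of 6 follicle keratinocyte markers were detected, against 1 of 9 hair or nail matrix markers. There Msx2 read 29.9 CPM, with an interval that overlapped that of smooth muscle-like cells, and 23.0, 26.9, 47.1 and 36.3 CPM by library. Msx1 in the same cluster read 14.2 CPM, so the pair was found together in this epithelial group and in mural cells.

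Dlx5 (ENSMUSG00000029755, chr6:6877805-6882085, minus strand) was highest in osteoblast-like cells, at 70.1 CPM, where it ranked the highest in all 3 libraries with at least 50 such cells. These read 67.7 (unamputated), 64.3 (17 dpa) and 92.3 CPM (28 dpa). The 14 osteoblast-like cells at 12 dpa gave 7.33 CPM and were too few to compare. Suprabasal keratinocyte-like cells were next, at 17.0 CPM, and their 4 libraries were nearly level at 17.9, 15.1, 15.3 and 17.5 CPM. Tenocyte-like cells read 11.8 CPM, basal keratinocyte-like cells 8.19, pericyte-like cells 4.08 and fibroblast-like cells 1.24, while macrophage-like cells stayed at or under 0.378 CPM for this gene and for all other members except Prrx1, Twist1 and Msx1. Most of the tenocyte-like signal came from cluster 8, at 48.8 CPM. This cluster was led by Chad, Comp, Omd, Ogn and Alpl, genes of cartilage-like and mineralising matrix, and 4 of 10 osteoblast markers were also detected in it.

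The hindlimb factors Tbx4 and Pitx1 were read in all 3 stromal classes, and the forelimb factor Tbx5 mainly in fibroblast-like cells. Tbx4 (ENSMUSG00000000094, chr11:85886422-85916097) read 30.7 CPM in osteoblast-like, 18.0 in tenocyte-like and 15.04 in fibroblast-like cells. Pitx1 (ENSMUSG00000021506, chr13:55825051-55836192, minus strand) read 3.96, 3.99 and 2.58 CPM, with overlapping intervals between osteoblast-like and each of the other classes. Tbx5 (ENSMUSG00000018263, chr5:119832668-119885219) read 7.52 CPM in fibroblast-like, 1.64 in tenocyte-like and 0.150 in osteoblast-like cells, the last from 2 UMIs, and fibroblast-like cells ranked the highest in all 4 libraries. Vascular endothelial-like cells had 0 Tbx5 UMIs, which allows up to 0.0960 CPM. Pitx1 is uncertain: Gm47071, annotated over it on the opposite strand, had 4342 UMIs against 539 for Pitx1, and reads of the pair cannot be told apart without strand.

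Lmx1b (ENSMUSG00000038765, chr2:33560965-33640511, minus strand) was low in all classes. It read 3.77 CPM in fibroblast-like, 3.07 in tenocyte-like and 1.87 in osteoblast-like cells, and 1.69 and 1.68 CPM in Schwann-like cells and in cluster 6. Each of these neighbours overlapped with the next. Of the fibroblast-like clusters, the 36 cells of cluster 13, described below, had the highest level. Among the larger ones it was highest in cluster 9, led by Gdf10, C4b and Igf1, at 9.08 CPM. Cluster 10, led by Clec3b, Sema3e and Ccn3, read 1.69 CPM, and cluster 14, led by Fgl2, Itih5 and Hcn4, had 0 UMIs in 880 cells, which allows up to 0.373 CPM.

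**Figure D2:**
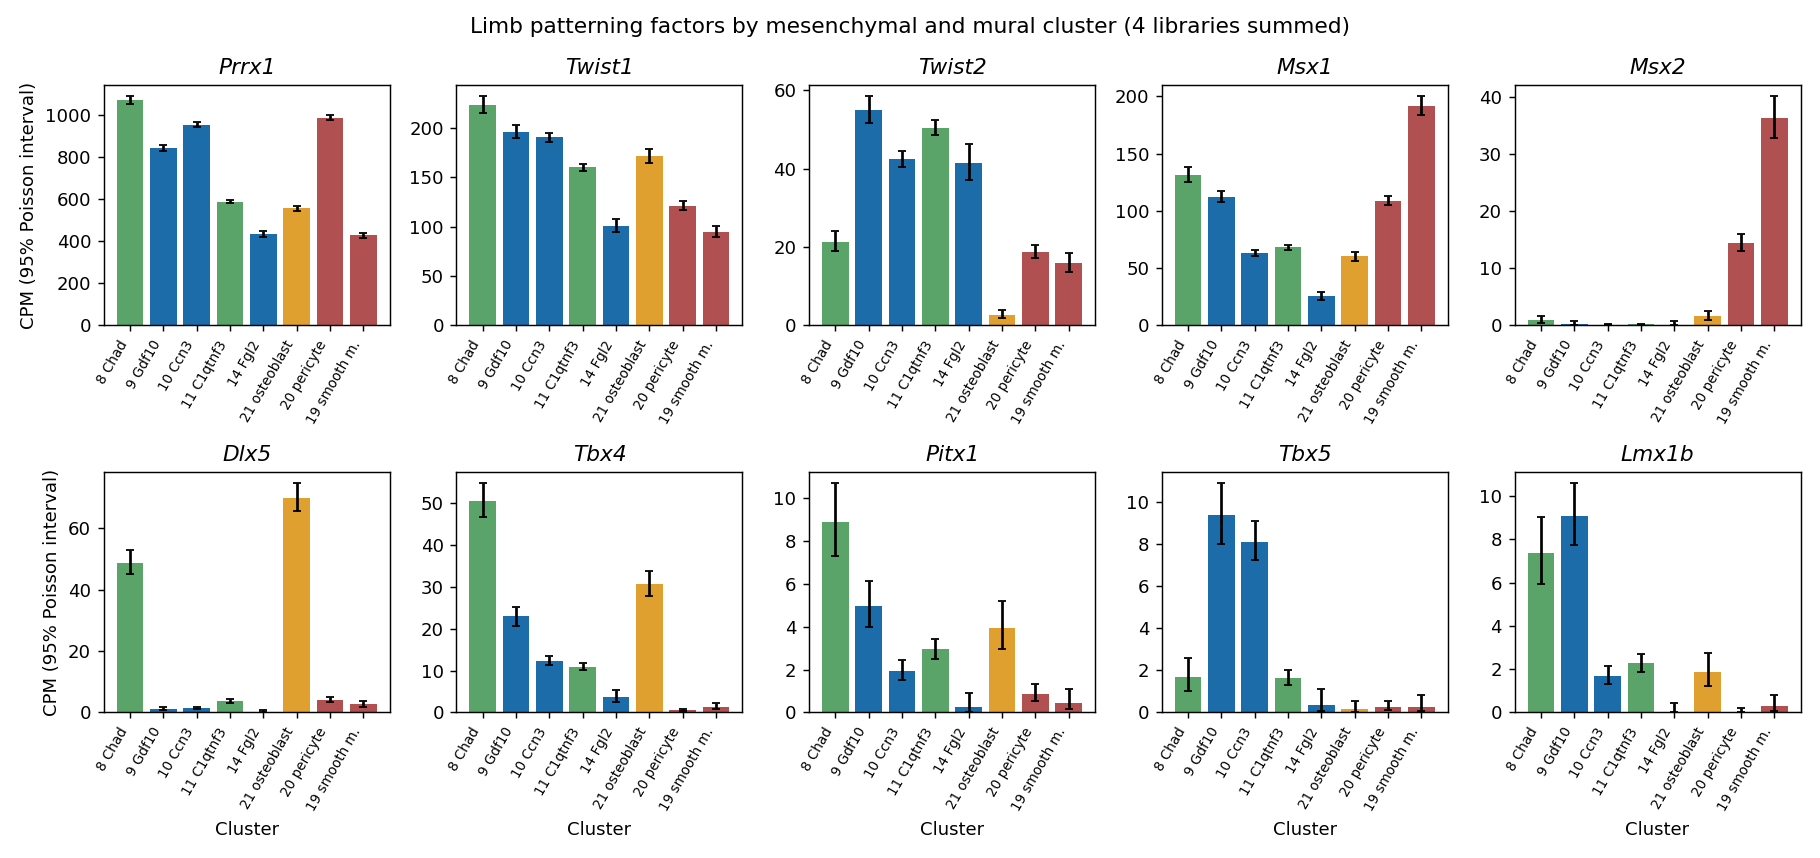
Level of each limb patterning factor (CPM, with 95% Poisson intervals) in single stromal and mural clusters, 4 libraries summed, with each panel on its own axis from 0. Cluster 8 is high for Tbx4, Pitx1, Dlx5 and Prrx1 together, Tbx5 is higher in clusters 9 and 10 than in clusters 8, 11 and 14, and Msx2 is high in the mural clusters.

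Within the stroma, clusters 8 to 11, which were looked at singly after their values had been seen, gave each gene a place. Cluster 8 read 50.6 CPM for Tbx4, 8.87 for Pitx1, 131 for Msx1, 223 for Twist1 and 48.8 for Dlx5, each above clusters 9, 10, 11 and 14. Tbx5 went the other way, with 9.35 CPM in cluster 9 and 8.12 in cluster 10 but 1.68 in cluster 8 and 1.65 in cluster 11, the tenocyte-like cluster led by C1qtnf3, Tnn and Fbn2. Cluster 14 was low for most members: Prrx1 read 436 CPM there, Twist1 101, Msx1 25.5, Tbx4 3.73, Pitx1 0.249 and Tbx5 0.373 CPM. Twist2 was the exception, at 41.6 CPM in cluster 14, close to the 42.5 CPM of cluster 10, while cluster 8 read 21.4 CPM. The order of the clusters was thus different for Twist2 than for Prrx1 and Twist1.

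Cluster 13, a group of 36 cells led by Hhip, Gpc5, Rorb and the agouti gene a, stood apart in level. It held 56 Tbx4 UMIs (264 CPM), 15 Lmx1b UMIs (70.6 CPM), 121 Twist1 UMIs (570 CPM) and 5 Msx2 UMIs (23.5 CPM), and its Prrx1 level of 970 CPM lay within the range of clusters 8 to 11. Pitx1 and Dlx5 had 0 UMIs in it, which allows up to 14.1 CPM. These cells were too few to compare between libraries.

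The second comparison asked how the members differed between the unamputated library and each time after amputation within fibroblast-like cells, numbering 725, 341, 1845 and 2426. Prrx1, Twist1, Twist2 and Msx1 stayed within 2-fold at all 3 times. Tbx4 and Pitx1 were lowest at 28 dpa, and Lmx1b was lower in every amputated library. A gene is called here when it differs by at least 2-fold on the log2(CPM + 1) scale with at least 5 CPM in the higher library. Each comparison uses the same unamputated library.

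Prrx1 read 900 CPM in the unamputated library and 656, 890 and 845 CPM at 12, 17 and 28 dpa, and Twist1 180, 143, 170 and 202 CPM. Twist2 read 42.6, 48.6, 48.3 and 45.7 CPM, and Msx1 66.2, 58.9, 72.6 and 78.2 CPM. Of these general mesenchymal factors, Prrx1, Twist1 and Msx1 were lowest in the 12 dpa library, and Twist2 hardly moved. The log2 ratios there were -0.46 (95% interval -0.52 to -0.40) for Prrx1, -0.33 (-0.46 to -0.20) for Twist1 and -0.16 (-0.37 to 0.03) for Msx1. The median of all genes tested was -0.19. At 28 dpa the log2 ratios of Prrx1, Twist1, Twist2 and Msx1 were -0.09, 0.16, 0.10 and 0.24.

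Tbx4 had 21.98 CPM in the unamputated library, and then 12.4, 16.6 and 10.1 CPM at 12, 17 and 28 dpa. Its log2 ratio at 28 dpa was -1.06 (-1.28 to -0.83), past 2-fold, and those at 12 and 17 dpa, -0.78 and -0.38, were not. The share of cells with a Tbx4 UMI was 30.5%, 10.9%, 15.8% and 8.70%, and 3.62%, 3.30%, 3.92% and 2.11% with cells thinned to 2000 UMIs. The 28 dpa library was the lowest by level and by the unthinned share, and its thinned share overlapped in counting error with those of the unamputated and 12 dpa libraries. Pitx1, its activator, read 4.90, 2.30, 2.36 and 1.495 CPM, with a log2 ratio of -1.24 (-1.58 to -0.85) at 28 dpa, and was not called because its highest level lay just under the 5 CPM minimum.

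Lmx1b was at 6.70 CPM in unamputated cells and at 2.07, 3.78 and 2.37 CPM at the 3 times after amputation. Its log2 ratios were -1.33 (-2.01 to -0.59), -0.69 and -1.19 (-1.53 to -0.83), past 2-fold at 12 and 28 dpa. All 3 amputated libraries were lower than the unamputated one. Tbx5 read 7.64, 5.52, 4.94 and 10.2 CPM, lowest at 17 dpa with a log2 ratio of -0.54 (-0.86 to -0.20) and highest at 28 dpa with 0.38 (0.08 to 0.69). Dlx5 stayed at or under 1.47 CPM and Msx2 at or under 0.690 CPM in these cells, and Dlx5 had 0 UMIs at 12 dpa, which allows up to 0.690 CPM.

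Among the 7 members that reached the 5 CPM minimum (Msx2, Pitx1 and Dlx5 did not), 1 was called lower and 0 higher at 12 dpa. Of all 10791 genes tested there, 5.74% were called lower and 1.33% higher, or 7.06% in either direction. At 17 dpa 0 members were called in either direction, where 1.29% of 10745 genes were lower and 0.614% higher, or 1.91% together. At 28 dpa 2 members were called lower and 0 higher, where 6.08% of 10750 genes were lower and 2.27% higher, or 8.35% together. The members' median log2 ratio was -0.41, -0.08 and 0.10 at the 3 times, beside -0.19, -0.03 and -0.13 for all genes tested. Counts this small beside those shares do not set the members apart from other genes. The Lmx1b ratio at 12 dpa was past 2-fold in 8 of 14 alternatives and came to -0.12 with a looser cell filter. At 28 dpa Tbx4 was past 2-fold in 8 of 16 alternatives, with -0.67 for stromal classes pooled, and Lmx1b in 10 of 16, with -0.60 when no doublets were removed and -0.41 in cluster 10 alone. The mix of clusters within the class also moved with time, since cluster 9, with 9.08 CPM of Lmx1b against 1.69 in cluster 10, made up 297 of 725 cells in the unamputated, 27 of 341 in the 12 dpa, 628 of 1845 in the 17 dpa and 596 of 2426 cells in the 28 dpa library. The 36 cells of cluster 13, which also belong to this class, came from the amputated libraries, with 7, 26 and 3 cells.

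**Figure D3:**
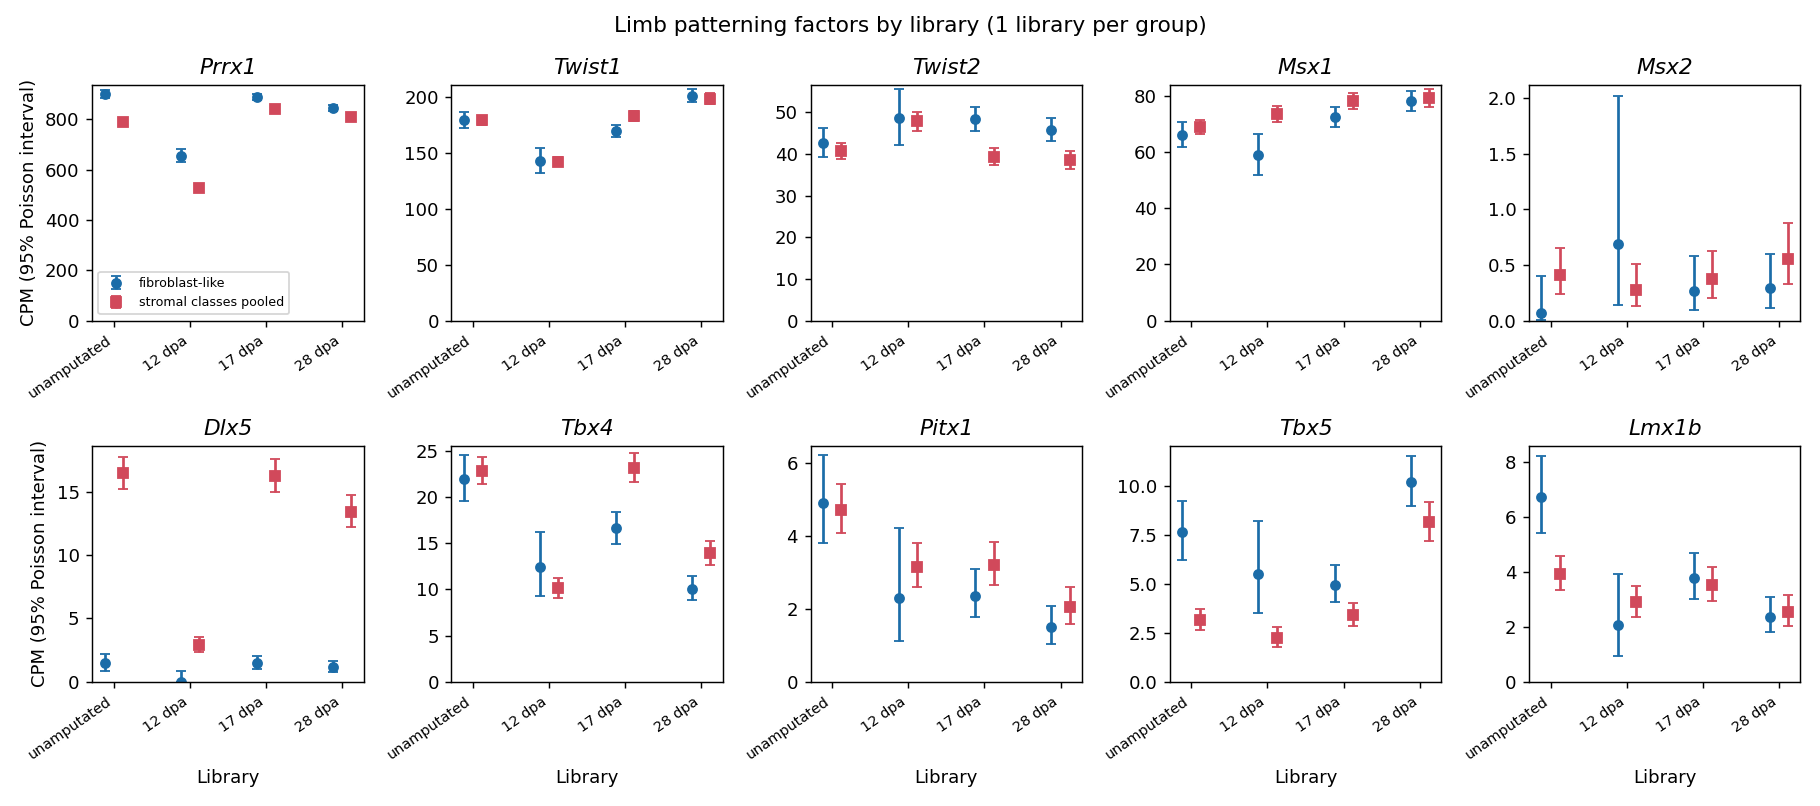
Level of each limb patterning factor (CPM, with 95% Poisson intervals) in the 4 libraries, by group of cells, with 1 library per group and each panel on its own axis from 0. Tbx4 and Lmx1b in fibroblast-like cells are highest in the unamputated library, at 21.98 and 6.70 CPM, while Tbx5 is highest at 28 dpa, at 10.2 CPM.

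Within clusters 9 and 10, Tbx4 was lower in every amputated library compared. It read 32.5, 20.7 and 16.6 CPM in cluster 9 of the unamputated, 17 and 28 dpa libraries, and 18.0, 9.37, 15.4 and 8.79 CPM in cluster 10 of all 4. In cluster 10 the 17 dpa value, from 161 UMIs, lay within counting error of the unamputated one, from 126 UMIs. Lmx1b read 15.1, 5.95 and 8.07 CPM in cluster 9, whereas in cluster 10 it read 1.86, 1.38, 2.59 and 1.15 CPM, a level too low for a call. Pitx1 in cluster 9 read 8.69, 2.91 and 3.71 CPM. In cluster 9, 2 members were called at 17 dpa (Lmx1b, log2 ratio -1.21, and Pitx1, -1.31), beside 4.94% of all genes, and 1 at 28 dpa (Pitx1, -1.04), beside 10.3%. These and the shares that follow count calls in either direction. In cluster 10, 0 members were called at 12, 17 or 28 dpa, where 4%, 2.21% and 8.68% of all genes were. Tbx5 at 28 dpa read 16.1 CPM in cluster 9, against 8.13 in the unamputated library (log2 ratio 0.91, 0.39 to 1.46), and 9.83 against 9.02 CPM in cluster 10. The higher Tbx5 level was therefore clear in cluster 9 and within counting error in cluster 10.

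In tenocyte-like cells 2 members were called at 12 dpa, Tbx4 with a log2 ratio of -1.09 and Dlx5 with -1.80, beside 2.51% of all genes. At 17 dpa 0 were called, beside 2.6%, and at 28 dpa 1 was called, Dlx5 with 1.02, beside 9.72%. This class changed its make-up: cluster 11 held 1667 of its 1831 cells at 12 dpa and 632 of 957 in the unamputated library, while cluster 8, where Tbx4 and Dlx5 are high, held 66 and 304. At 17 and 28 dpa cluster 11 held 283 of 766 and 368 of 590 cells, and cluster 8 held 468 and 216. Within cluster 11 Tbx4 read 13.2, 9.40, 12.8 and 10.3 CPM in the 4 libraries. Also within cluster 11, Twist2 read 57.6, 48.9, 55.8 and 25.01 CPM and Dlx5 3.67, 2.67, 5.68 and 8.83 CPM. At 28 dpa Twist2 was thus called lower (log2 ratio -1.17, -1.47 to -0.89) and Dlx5 higher (1.07, 0.51 to 1.64), beside 13.5% of all genes. At 12 and 17 dpa 0 members were called in this cluster, beside 1.07% and 3.5%. The summed tenocyte markers in this cluster also moved, from 1774 CPM in the unamputated library to 1884, 2723 and 7197 CPM, and their part in the result was not tested.

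In cluster 8 the 12 dpa library, with 66 cells, was low for several members and the 28 dpa library high. Dlx5 read 45.6, 21.8, 45.2 and 91.4 CPM, with a log2 ratio of 0.99 at 28 dpa, just under the 2-fold limit. Msx1 read 103, 94.3, 162 and 166 CPM, and Tbx4 48.5, 25.4, 53.6 and 64.1 CPM. For all 3 genes the 12 dpa library was the lowest and the 28 dpa library the highest by level. For Msx1 the 12 dpa value lay within counting error of the unamputated one. For Msx1 and Tbx4 the 28 dpa value lay within counting error of the 17 dpa one. Lmx1b read 7.54 CPM in the unamputated library, 7.36 at 17 dpa and 11.1 at 28 dpa, and its 0 UMIs at 12 dpa allow up to 3.63 CPM. At 12 dpa 3 members were called, Dlx5 (log2 ratio -1.03), Pitx1 (-1.10, with an interval of -2.45 to 0.16 that spans 0) and Lmx1b, whose call takes the 0 UMIs as exact and is not reached at the limit they allow, beside 11.6% of all genes, and at 17 and 28 dpa 0 were called, beside 3.96% and 11%. Osteoblast markers summed over this cluster read 1902, 1036, 1832 and 2185 CPM in the same order, and their part in these values was not tested. In pericyte-like cells 0 members were called at any time, beside 3.75%, 1.7% and 5.05% of all genes. In smooth muscle-like cells 0 were called, beside 7.56%, 3.37% and 8.9%. In osteoblast-like cells 0 were called at 17 and 28 dpa, beside 7.74% and 14.6%.

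With fibroblast-like, tenocyte-like and osteoblast-like cells pooled, Tbx4 read 22.8, 10.1, 23.2 and 13.9 CPM, Dlx5 16.5, 2.91, 16.2 and 13.5 CPM, and Tbx5 3.14, 2.24, 3.39 and 8.15 CPM. Tbx4 (log2 ratio -1.10) and Dlx5 (-2.16) were called at 12 dpa, beside 5.38% of all genes. In that library osteoblast-like cells, where both genes are high, were 14 of 2186 cells of the pool, against 225 of 1907 in the unamputated library, and cluster 8 had 66 cells against 304. At 17 dpa 0 members were called, beside 2.85%, and at 28 dpa 1 was called, Tbx5 (1.14, 0.87 to 1.43), beside 9.36%. Fibroblast-like cells, where Tbx5 is highest, were 725 of 1907 cells of the pool in the unamputated library and 2426 of 3380 at 28 dpa.

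The forelimb and hindlimb factors were next set against each other, because Tbx5 and Tbx4 are known to mark opposite limb pairs in the embryo and the labels name no limb. Both were present in every library, with 973, 376, 885 and 463 Tbx4 UMIs and 134, 81, 133 and 270 Tbx5 UMIs in kept cells. The Tbx5 share of their summed UMIs was 12.1% in the unamputated library (95% interval 10.2 to 14.2). It was 17.7% (14.3 to 21.5) in the 12 dpa library, 13.1% (11.1 to 15.3) in the 17 dpa library and 36.8% (33.3 to 40.4) in the 28 dpa library. The 28 dpa library thus stood above the other 3, whose intervals overlapped in part. In fibroblast-like cells alone the shares were 25.8%, 30.8%, 22.9% and 50.4%, and in cells with Y-linked transcripts, a subset chosen after the data were seen, 11.2%, 15.3% and 39.6% for the 3 libraries that held such cells. In cluster 9 the share was 20%, 23.8% and 49.3% in the unamputated, 17 and 28 dpa libraries, and in cluster 10 it was 33.3%, 38.2%, 26.1% and 52.8% in all 4. In cluster 11 it was 7.30%, 16.7%, 8.70% and 22.2%, and in cluster 8 it stayed at or under 4.40% in each library. The 28 dpa value was the highest in each of these groups of cells, but its interval overlapped that of other libraries in clusters 8 and 11 and, in cluster 10, that of the 12 dpa library (47.2 to 58.3 against 25.4 to 52.3). Pitx1, with 221, 118, 129 and 71 UMIs, was lowest where the Tbx5 share was highest. Whether the libraries differed in the number of fore- and hindlimb digits was not tested.

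**Figure D4:**
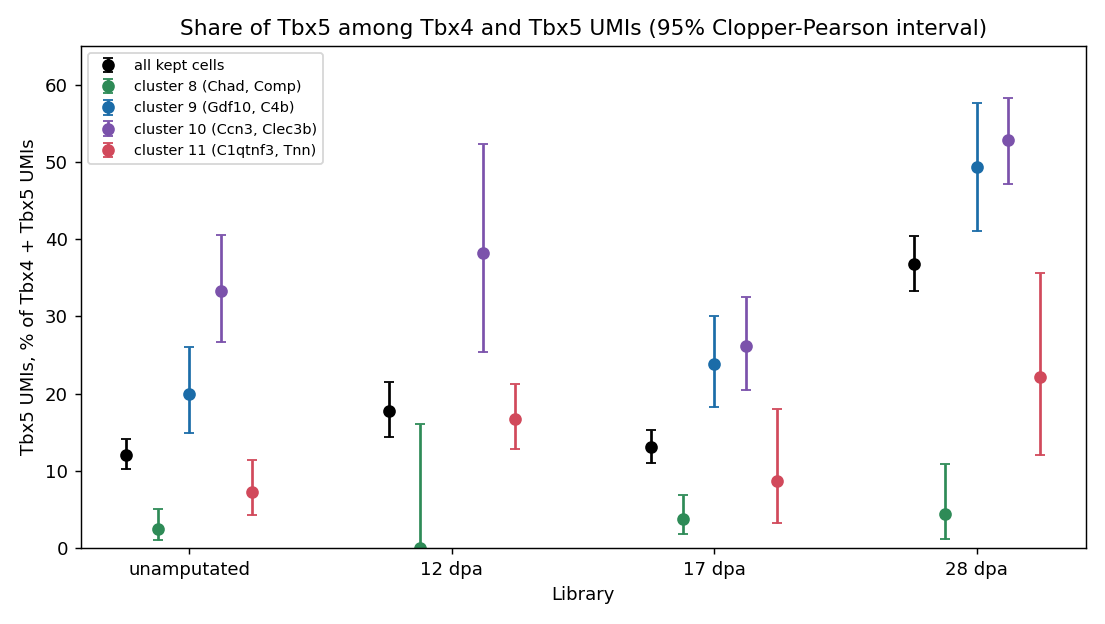
Tbx5 UMIs as a percentage of Tbx4 and Tbx5 UMIs together in each library, with 95% Clopper-Pearson intervals, by group of cells. The 28 dpa library is the highest, at 36.8% in all kept cells.

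Single cells were then asked whether they carried both T-box genes. In the unamputated library, 36 of 71 fibroblast-like cells with a Tbx5 UMI also had a Tbx4 UMI, or 50.7% (38.6 to 62.8), against 28.3% (24.9 to 31.9) of the cells without Tbx5. The cells with Tbx5 were deeper, with a median of 22949 UMIs against 17834.5, and the part of depth in this difference was not tested. Within cluster 10 of that library 20 of 40 cells with Tbx5 had Tbx4, against 26.5% of those without. In cluster 9 the shares were 51.6% of 31 cells (33.1 to 69.8) and 39.8% (33.9 to 46.01), with overlapping intervals. At 28 dpa, 21 of 198 fibroblast-like cells with Tbx5 had Tbx4, or 10.6% (6.69 to 15.8), against 8.53% (7.40 to 9.77) of those without, with overlapping intervals. In cluster 11, over the 4 libraries, 2 of 76 cells with Tbx5 had Tbx4, or 2.63% (0.320 to 9.18), against 14.96% (13.7 to 16.3) of the rest, at median depths of 15754 and 16222 UMIs. This pooled difference was not resolved within any library, where the intervals overlapped: the shares were 0 of 14 cells against 22.8% in the unamputated library, 2.22% against 12.9% at 12 dpa, 0 of 6 cells against 16.97% at 17 dpa and 9.09% against 9.24% at 28 dpa. For Lmx1b, 32 of 59 unamputated fibroblast-like cells with Lmx1b, or 54.2% (40.8 to 67.3), had Tbx4, against 28.4% of those without, at near-equal median depths of 17987 and 18296 UMIs. Within cluster 9 of that library the shares were 59.2% of 49 cells and 37.5%, while in cluster 10 they were 3 of 10 cells and 29.5%. After amputation the intervals overlapped in cluster 9, with 21.1% against 20.3% at 17 dpa and 12.5% against 11.3% at 28 dpa. Over all fibroblast-like cells they overlapped too, with 3 of 8 cells against 10.2% at 12 dpa, 25.4% against 15.5% at 17 dpa and 6 of 50 cells against 8.63% at 28 dpa. With stromal classes pooled the intervals overlapped at 12 dpa (20% against 12.8%). They did not at 17 dpa (31.4% against 20.5%) or 28 dpa (23.3% against 10.3%). This pool mixes clusters that differ in both genes, and the part of that mix was not tested. In cluster 8 they overlapped at 17 dpa (34.5% against 35.1%) but not at 28 dpa (8 of 13 cells against 22.2%). For Pitx1 in unamputated fibroblast-like cells the shares were 40.8% of 49 cells and 29.7%, with overlapping intervals.

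The other limb genes compared, 58 in lists of 14 paralogues of the members, 27 further limb transcription factors, 7 Twist partners and inhibitors and 10 limb bud signals, were all found in the matrices. Among the most abundant in unamputated fibroblast-like cells were the E proteins Tcf4, at 723 CPM, and Tcf12, at 379, which pair with Twist factors, the inhibitor Id3, at 301, and the T-box gene Tbx15, at 188. At 12, 17 and 28 dpa Tcf4 read 430, 625 and 603 CPM, Id3 240, 384 and 415 CPM, and Tbx15 162, 149 and 106 CPM. At 12 dpa 5 of the 37 that passed the minimum were called lower and 0 higher. They were Id1, a BMP-responsive inhibitor of helix-loop-helix factors (76.3 to 22.8 CPM, log2 ratio -1.70), Id2 (49.7 to 22.8, -1.09), the nuclear receptor gene Nr2f2 (170 to 61.9, -1.45), Tbx3 (20.03 to 8.28, -1.18) and the limb bud growth factor Fgf10 (38.1 to 17.9, -1.05). By list these were 1 of 6 paralogues, 1 of 18 further transcription factors, 2 of 7 Twist partners and inhibitors and 1 of 6 signals. At 17 dpa 0 of 36 were called. At 28 dpa 5 of 36 were called lower and 0 higher, namely Fgf10 (to 11.3 CPM, -1.66), the Lmx1b paralogue Lmx1a (32.9 to 9.93, -1.63), the Wnt agonist Rspo2 (20.2 to 6.23, -1.55), Osr1 (109 to 41.6, -1.37) and the Hedgehog effector Gli2 (73.2 to 33.6, -1.10). By list these were 1 of 5 paralogues, 2 of 18 further transcription factors, 0 of 7 Twist partners and inhibitors and 2 of 6 signals. The called genes are 13.5% and 13.9% of the genes that passed, beside 5.74% and 6.08% of all genes called lower in the same comparisons. The median log2 ratio over the lists was -0.08, -0.08 and -0.29. Other groups of cells had calls in both directions at 28 dpa. Cluster 9 gave 4 higher and 3 lower of 35, cluster 10 gave 3 and 6 of 35, and tenocyte-like cells gave 7 and 11 of 35. In the latter, 4 of 7 Twist partners and inhibitors were higher and 0 lower, and 7 of 17 further limb transcription factors were lower and 0 higher. The shares of all genes called there were 10.3%, 8.68% and 9.72%. Cluster 11 alone gave 7 higher and 13 lower of 35, beside 13.5% of all genes. Its calls included 4 of 7 Twist partners and inhibitors, all higher, and 9 of 18 further limb transcription factors, all lower.

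Finally, each member was matched to the genes whose level followed it most closely over 66 sums, 1 for each class and library with at least 50 cells. Pearson's r of log2(CPM + 1) was computed against 12647 genes as a description, since sums of 1 library share their depth and sums of 1 class their cell type. Prrx1 was most like Tbx15 (0.966), Hoxa13 (0.953) and Bmp5 (0.953), and Twist1 like Bmp5 (0.950), Hoxa11os (0.944) and Hoxa13 (0.939). Twist2 was closest to Tbx15 (0.916), C1qtnf2 (0.912) and Cd248 (0.908). Tbx4 followed 2700069I18Rik (0.949), Csrnp3 (0.947) and Hoxd13 (0.940), and Pitx1 followed 2700069I18Rik (0.941), Tbx4 (0.939) and Hoxd13 (0.933). Tbx5 was closest to Cyp2f2 (0.915), Wnt2 (0.911) and Fbln7 (0.877), and Lmx1b to Armh4 (0.886), Nlgn1 (0.856) and Fibin (0.853). The hindlimb pair thus shared 2 of 3 nearest genes, and Tbx5 shared none with them. Msx1 was nearest to Sulf1 (0.937), Cacna1c (0.921) and Nfatc4 (0.911), Msx2 to Synpo2 (0.855), Cck (0.845) and Fgf1 (0.838), and Dlx5 to Pdzrn4 (0.825), Tnfrsf19 (0.805) and Dlx6os1 (0.794). Between members, r was 0.938 for Prrx1 and Twist1, 0.860 for Twist1 and Twist2, 0.699 for Tbx4 and Tbx5 and 0.556 for Msx1 and Msx2.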

How the data were processed

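Dissected P2 digit tissue was digested, sorted for live cells and run on 10x 3′ v3 chemistry, per the labels' protocols. The deposited values are whole-number counts of UMIs per gene and barcode, not normalized. The authors used Cell Ranger 7.1.0 with mm10, per the submitters' processing notes; cell calling and the strand setting are not given in the sources used here. Coordinates are from GENCODE M21 on GRCm38, the same assembly as mm10.

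A barcode was kept as a cell from 500 genes and 1000 UMIs upward, if no more than 10% of UMIs were mitochondrial. Doublets were taken out by rank of the Scrublet score, at 0.8% per 1000 barcodes. The 4 libraries were clustered together in scanpy 1.11.5 (Python 3.11.15, igraph 0.11.9) after scaling to 10000 UMIs, with the Leiden method (resolution 1) on 15 neighbours in 30 components of 2000 variable genes. The 10 members, the other limb genes, Xist, Tsix, 4 Y-linked genes and mitochondrial genes took no part. A cluster took the class with the best marker score, with at least 3 markers detected in at least 25% of its cells, and stayed unnamed if another class had more markers among its 10 leading genes. Of 211 markers, 210 were found. A sex call needed at least 2 UMIs of Xist or of the Y-linked genes and none of the other.

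UMIs were summed per class and library as CPM, and log2 ratios were taken after adding 1 CPM. Comparisons with under 50 cells in a library were not made, a limit chosen after the data were seen. Intervals are 95% exact Poisson for sums, Clopper-Pearson for shares and conditional binomial for ratios (scipy 1.17.1), and cover counting error only. A count of 0 was given the limit of 3 counts. Ratios and intervals were tested on simulated counts. Depths are given in the report.

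Named genes were all members, other limb genes past 2-fold with at least 10 CPM in the higher library (up to 6 per comparison), the 5 most abundant of them (1 is not reported here), and the 3 most alike to each member among genes reaching 20 CPM in a sum. Members and lists were chosen with earlier results of these data known. Alternatives changed the cell filter, doublet removal, resolution, naming, pooling, scaling, pseudocount, gene minimum and averaging.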

Additional observations from a re-analysis of the deposited data

Results flagged for a closer look

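Xist, which female cells express from the inactive X chromosome, was not part of the comparisons and read 458 CPM over the kept cells of the 12 dpa library, against 0.134, 0.154 and 0.0762 CPM in the unamputated, 17 and 28 dpa libraries. It is listed here because a signal in a gene outside the comparisons exceeded that of the unamputated library. The Y-linked genes went the other way, with 0.228 CPM at 12 dpa and 350, 258 and 244 CPM in the other 3. The labels give every library as pooled from both sexes, and how this bears on the 12 dpa levels of the limb patterning factors was not tested.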

How the results depend on the processing

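No paired analysis was possible because each group held 1 library. Of the limb patterning factors, 1 was called in fibroblast-like cells at 12 dpa. The count was 0 with the looser filter (200 genes, 500 UMIs, 20% mitochondrial), a pseudocount of 5 CPM, a minimum of 20 CPM, per-cell averaging or cluster 10 alone, 2 with the stricter filter (1000, 2500, 5%), no doublets removed, no minimum or stromal classes pooled, where 13.3%, 6.86%, 3.77% and 5.38% of all genes were called, and 3 at Leiden resolution 2, beside 8.45%. At 17 dpa the count of 0 became 2 in cluster 9 alone, beside 4.94%. At 28 dpa the count of 2 became 0 with no doublets removed, each cell classed alone, a pseudocount of 5 CPM or cluster 10 alone, and 1 with stromal classes pooled (Tbx5, higher), a minimum of 20 CPM, the median of all genes removed or cluster 9 alone. It was 3 at Leiden resolution 2, beside 9.61% of all genes, and 3 with no minimum, beside 3.68%. Lmx1b at 12 dpa was below 0 in 14 of 14 alternatives (log2 ratio -2.67 to -0.12). At 28 dpa Lmx1b (-1.42 to -0.41), Tbx4 (-1.11 to -0.67) and Pitx1 (-1.47 to -0.61) were below 0 in 16 of 16. These counts are not independent support, because a changed minimum or pseudocount cannot turn a sign and the other alternatives reuse the same libraries. Other ratios did turn: at 17 dpa Lmx1b took the other sign in 1 of 16 and Prrx1 in 8 of 16.

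The count of other limb genes called at 12 dpa, 5, became 10 of 36 with the stricter filter (13.3% of all genes), 8 of 39 with no doublets removed (6.86%), 2 of 37 with a pseudocount of 5 CPM (3.64%), 3 of 37 with the median removed (6.77%) and 1 of 35 in cluster 10 (4%). At 17 dpa 0 became 1 with no doublets removed, per-cell averaging or cluster 10, and 3 with stromal classes pooled or cluster 9. At 28 dpa 5 became 8 of 36 with the looser filter (10.9%), 8 of 35 at Leiden resolution 2 (9.61%), 9 of 36 with the stricter filter (10.6%), 9 of 35 in cluster 10 (8.68%) and 2 of 39 with no doublets removed (4.81%). Over all alternatives the share of all genes called lay between 3.64% and 13.3% for 12 dpa, between 0.819% and 4.94% for 17 dpa, and between 3.68% and 10.9% for 28 dpa. The Tbx5 share moved from 12.1%, 17.7%, 13.1% and 36.8% to 25.8%, 30.8%, 22.9% and 50.4% in fibroblast-like cells alone, and at 17 dpa to 15.3% in cells with Y-linked transcripts. Clusters 9 and 10 alone and the Y-linked subset were added after the data were seen. For all of these the cause was not tested. Depth limits Pitx1, Lmx1b, Tbx5, Msx2 and Dlx5, all at or under 10.2 CPM in fibroblast-like cells of every library.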
